A study of Homo sapiens with 100 samples.

Results

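TMD8 clones carrying the A428D change were compared with wild-type TMD8 clones after 24 h under the same pair of drugs, pomalidomide plus venetoclax. TMD8 is an established human lymphoma line of the activated B cell (ABC) kind of diffuse large B cell lymphoma. The libraries were chosen by the genotype, clone and treatment in their column labels, which gave 11 of the 100 libraries of the series: 6 A428D clones and 5 wild-type clones, 1 library per clone. All 11 were single-cell clones of the 1 line, grown in the same medium, and none in this comparison was without drug. The growth and design texts place A428D in BTK at its endogenous locus, whereas the sample titles attach it to SF3B1. The name A428D is used for the clones below, and counts of transcript 3' ends cannot check a base change. Drug doses were not stated. For context, the same clones given the solvent DMSO, venetoclax alone or pomalidomide alone for 24 h were used, 5 wild-type and 6 A428D libraries in each condition. The replicates are clones, so the p-values measure the spread between these clones of a single line.

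BTK is a kinase that passes signals from the B cell receptor to NF-kB, and lymphomas of the activated B cell type depend on that route. Pomalidomide binds cereblon (CRBN), the substrate receptor of an E3 ubiquitin ligase, and directs IKZF1 and IKZF3, transcription factors of B cells, to degradation, so that the proteins are lost and not necessarily their transcripts. Venetoclax blocks the survival protein BCL2. B cells on the way to secretion raise a set of chaperones of the endoplasmic reticulum (ER), while MHC class II molecules mark the antigen-presenting state of mature B cells.

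Depth ran from 5807113 to 6901923 counted reads in the wild-type libraries and from 5873525 to 8252868 in the A428D libraries. In no pair of libraries of a group did the counts agree within sampling noise. A428D clone 1 stood apart from the rest: its root mean square distance to the mean of its own group, in log2 units, was 0.49, against 0.28 to 0.37 for the other A428D clones and 0.25 to 0.31 for the wild-type clones. On the first principal component (36.7% of variance) A428D clones 3, 5 and 6 scored 15.9 to 17.9, A428D clones 1, 2 and 4 scored 2.2, -5.9 and 3.9, and the wild-type clones -12.6 to -7.5. Mitochondrial transcripts took 8.06% ± 0.571 of counts (SD, n = 6) in A428D and 9.32% ± 0.593 (SD, n = 5) in wild-type libraries, with no overlap (exact permutation test, two-sided p = 0.00433 over 462 splits). The highest A428D library stood at 8.85% and the lowest wild-type library at 8.88%. Under DMSO, venetoclax and pomalidomide the mean share, A428D minus wild-type, was -0.84, -0.651 and -0.992 percentage points, and the groups overlapped in each. What part this share played in the results below was not tested. Without mitochondrial genes in the table the count of called genes was 329, against 325 with them. That count cannot decide the question, because leaving genes out of the table keeps any difference between the cells in place. Markers of other cell types were near absent: 0 of 9 T and NK cell markers and 0 of 8 myeloid markers reached the expression filter, with summed levels of at most 3.23 and 2.45 CPM (counts-per-million, a count relative to the library total). GNLY, S100A8, FCGR3A, MPO, VWF and CDH5 were at 0 in all 11 libraries. Of 8 fibroblast and endothelial markers, 3 were tested and 0 called by edgeR (1 at an unadjusted p under 0.05) or DESeq2, at summed levels of 9.58 to 19.4 CPM in A428D and 7.87 to 16.1 CPM in wild-type libraries.

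Under the combination, the A428D clones held less RNA for chaperones of the ER and more for MHC class II molecules, and differed in several surface and adhesion genes. Of 12872 genes tested, 325 differed at an adjusted p under 0.05 (2.52%), 122 of them higher in A428D (0.948%) and 203 lower (1.58%). At an unadjusted p under 0.05 there were 2373 genes (18.4%), the share to set beside such counts in the lists below. Changes are log2 fold changes, A428D minus wild-type, with their standard errors (SE). Every adjusted p is from edgeR's quasi-likelihood test with Benjamini-Hochberg adjustment unless another is named. Levels are CPM scaled over the 44 libraries of the 4 conditions. Among the called genes, 28 were at least 2-fold higher and 47 at least 2-fold lower in A428D (together 0.583% of genes tested). In 236 called genes the groups did not overlap. Among all genes tested, 488 had no overlap (3.79%), 239 with A428D above (1.86%) and 249 with A428D below (1.93%). In bulk cultures, fewer cells expressing a gene and less RNA per cell cannot be told apart. The count rested on single clones: it was 734 without A428D clone 1, 161 without wild-type clone 4, 166 without wild-type clone 2, and 207 and 215 without A428D clones 6 and 5.

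**Figure D1:**
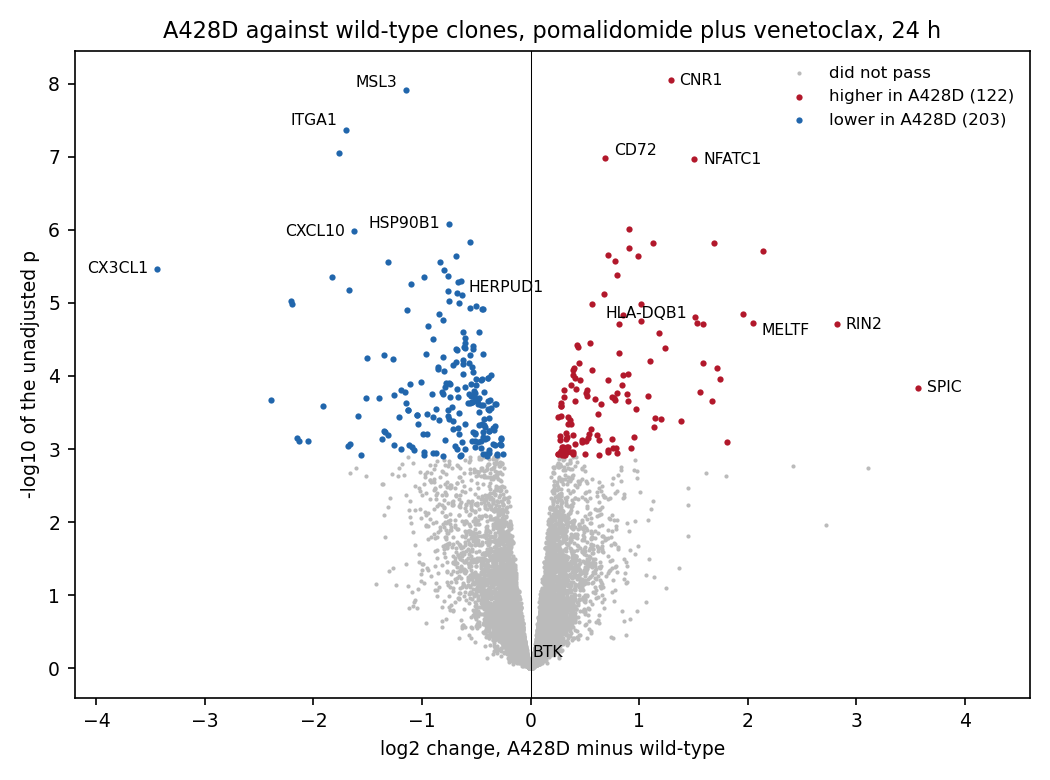
Each point is 1 of 12872 genes under pomalidomide plus venetoclax, with the log2 change (A428D minus wild-type) on the x axis and -log10 of the unadjusted p on the y axis. The 122 genes called higher in A428D are red and the 203 called lower are blue; CNR1 and MSL3 sit at the top and BTK lies at the bottom near 0.

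BTK and the drug targets did not differ detectably in transcript level between the genotypes. BTK itself (X, 101349447 to 101390796, minus strand, GRCh38) was at 72, 66.7, 69, 76.8 and 69.7 CPM in wild-type clones 1 to 5, and at 59.2, 69 and 82.2 CPM as the lowest, median and highest of the A428D clones. The groups overlapped, with a log2 change of -0.04 ± 0.08 (SE; unadjusted p = 0.614). IKZF1, a transcription factor that pomalidomide marks for degradation, was at 342 ± 20.6 CPM in wild-type and 313 ± 15.7 CPM in A428D clones (mean ± SD, n = 5 and 6; log2 -0.14 ± 0.06, adjusted p = 0.249). IKZF3, its relative and also a pomalidomide target, was at 156 ± 7.55 and 157 ± 17.7 CPM (adjusted p = 0.99). CRBN, the drug receptor, was at 12.2 ± 3.29 and 11.2 ± 1.16 CPM (adjusted p = 0.683). IRF4, the B cell factor on which these lymphomas depend, was at 364 ± 28.4 and 341 ± 53.4 CPM (log2 -0.10 ± 0.10, adjusted p = 0.617), and MYC at 153 ± 12.6 and 165 ± 27 CPM (adjusted p = 0.666). For BCL2, the target of venetoclax, wild-type clones held 48.2, 44.2, 34.9, 47 and 37.4 CPM and A428D clones 26.8 to 40.6 with a median of 33.4. The groups overlapped and the change of -0.35 ± 0.11 missed the threshold (adjusted p = 0.111), though it passed without the expression filter at no larger a change (-0.34, adjusted p = 0.0268). MCL1, the survival protein that can stand in for BCL2, was at 181 ± 5.05 and 191 ± 14.9 CPM (adjusted p = 0.618). Over all genes tested, 18.4% had an unadjusted p under 0.05. Of 20 tested genes of the Ikaros family and the cereblon ligase, 0 were called by edgeR (4 at an unadjusted p under 0.05). Their median log2 change was 0.03. DESeq2 called 1, UBE2D3, a ubiquitin-conjugating enzyme, at 0.19 (adjusted p = 0.0251), as did edgeR in the fit of 44 libraries (adjusted p = 0.00644). That fit treats libraries of the same clone under different conditions as independent when it estimates the spread, so its p-values can be too small. Of 14 BCL2 family genes, 0 were called by edgeR (7 at an unadjusted p under 0.05) and 0 by DESeq2, with a median of -0.10. BAX, which opens the mitochondrial outer membrane, passed at 0.27 without the filter (adjusted p = 0.0438) and in the fit of 44 libraries (adjusted p = 0.0425), and at 0.31 without A428D clone 1 (adjusted p = 0.0345). The median over all genes tested was 0.01. BCL2L1, another BCL2 relative that protects from cell death, was at 10.2 ± 1.18 CPM in wild-type and 7.49 ± 0.962 CPM in A428D clones (log2 -0.46 ± 0.12, adjusted p = 0.0581). Its adjusted p was 0.0491 without A428D clone 1, 0.0364 without A428D clone 2 and 0.0286 in the fit of 44 libraries.

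Genes of the folding machinery of the ER were lower in A428D clones. In a list of plasma cell and secretory genes, 9 of 18 tested members were lower in A428D and 0 higher, with a median log2 change of -0.37. The 9 are chaperones, folding enzymes and helpers of ER quality control: HSP90B1, HERPUD1, MANF, SDF2L1, HSPA5, PDIA6, PDIA4, CRELD2 and CALR. The plasma cell regulators in the list did not pass: PRDM1 was at log2 -0.28 ± 0.13 (adjusted p = 0.27) and XBP1, which drives the secretory programme, at -0.21 ± 0.12 (adjusted p = 0.404). The joining chain of secreted antibodies, JCHAIN, was at 0.86 ± 0.67 (adjusted p = 0.543), and SDC1 and CD38 fell below the expression filter.

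Because chaperone genes of the ER are known for a shared promoter element, the ER stress response element, promoter windows of RefSeq (GRCh38.p14) were searched for its letters, CCAAT and CCACG with any 9 bases between them, on both strands in the 250 bases before each gene start. The letters occurred in 26 of 35116 windows (0.074%), which belong to 25 of 27305 genes (0.0916%), and in 6 of the 18 list genes that had a window: CALR, CRELD2, HSP90B1, HSPA5, PDIA6 and XBP1. Of these, 5 were called lower and XBP1 was not called. The stretches around the matches in 4 of the called genes are shown 5′ to 3′ on the gene's strand, with the match in capitals (in CALR, and in the second match of HSP90B1, it runs on the opposite strand).
HSPA5, chr9:125241356-125241444, minus strand: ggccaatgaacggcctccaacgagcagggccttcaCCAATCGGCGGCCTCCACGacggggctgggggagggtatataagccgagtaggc
HSP90B1, chr12:103930216-103930339, plus strand: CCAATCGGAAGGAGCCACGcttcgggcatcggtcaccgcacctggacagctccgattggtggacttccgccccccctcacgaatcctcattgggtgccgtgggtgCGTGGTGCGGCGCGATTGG
CALR, chr19:12938359-12938437, plus strand: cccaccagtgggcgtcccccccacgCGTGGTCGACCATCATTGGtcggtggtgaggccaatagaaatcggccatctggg
PDIA6, chr2:10812818-10812906, minus strand: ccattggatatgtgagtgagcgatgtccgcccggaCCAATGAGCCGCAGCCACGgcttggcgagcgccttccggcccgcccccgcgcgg
The windows start from RefSeq gene starts, which can differ from the GENCODE 29 gene spans given for positions: the HSP90B1 and PDIA6 stretches lie inside those spans, which begin further upstream. A match is a description of the letters in the reference sequence, and no binding was measured.

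HSP90B1 (12, 103930107 to 103953645, plus strand, GRCh38), the ER form of the HSP90 chaperone, was at 525, 552, 601, 735 and 501 CPM in wild-type clones 1 to 5 and at 327, 338 and 413 CPM as the lowest, median and highest of the A428D clones. Every A428D clone lay below every wild-type clone, with a log2 change of -0.75 ± 0.10 (SE; adjusted p = 0.0015). HSPA5 (9, 125234853 to 125241330, minus strand), also known as BiP, the chief chaperone of the ER lumen, held 220, 231, 267, 253 and 217 CPM in wild-type clones and 138, 165 and 216 CPM in A428D clones. The highest A428D clone, clone 3, lay just below the lowest wild-type clone (log2 -0.50 ± 0.10, adjusted p = 0.0131). HERPUD1, which helps remove misfolded proteins from the ER, was at 136, 124, 110, 147 and 121 CPM against 67.2, 86.9 and 93.8 CPM, again without overlap (log2 -0.63 ± 0.10, adjusted p = 0.00294). MANF, a secreted ER stress factor, was at 138 ± 13.5 and 91.4 ± 15.4 CPM (log2 -0.60 ± 0.11, adjusted p = 0.00711), and SDF2L1, a partner of HSPA5, at 95.5 ± 8.58 and 62.7 ± 11.9 CPM (log2 -0.62 ± 0.11, adjusted p = 0.00936). These 5 genes passed with any 1 clone left out.

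The remaining 4 members changed by less and depended on single clones. PDIA6 and PDIA4, which form disulphide bonds, were lower by log2 -0.32 ± 0.07 (adjusted p = 0.018) and -0.38 ± 0.08 (adjusted p = 0.024). CRELD2 was lower by -0.47 ± 0.11 (adjusted p = 0.0279) and CALR, the calcium-binding lectin chaperone calreticulin, by -0.33 ± 0.08 (adjusted p = 0.041). PDIA6 did not pass without wild-type clone 2, 3 or 4 or A428D clone 6 (adjusted p = 0.0517 to 0.0683), and PDIA4 without wild-type clone 2, 3 or 4 or A428D clone 5 or 6 (0.0624 to 0.0889) or in the fit of 44 libraries (0.0536). CRELD2 did not pass without wild-type clone 2, 3, 4 or 5 or A428D clone 5 or 6 (0.0544 to 0.0974), and CALR without those clones or A428D clone 4 (0.0637 to 0.11). Outside the list, further genes of the same compartment were picked after their values were seen. HYOU1, a large ER chaperone, was at 35.3 ± 3.96 CPM in wild-type and 23.1 ± 3.19 CPM in A428D clones (log2 -0.62 ± 0.11, adjusted p = 0.00548). DNAJC3, an HSPA5 co-chaperone, was at 37.9 ± 2.89 and 23.7 ± 4.94 CPM (log2 -0.69 ± 0.12, adjusted p = 0.00758), and PPIB, an ER prolyl isomerase, at 247 ± 19.6 and 179 ± 18.8 CPM (log2 -0.47 ± 0.08, adjusted p = 0.00548). CANX, the membrane-bound lectin chaperone, was at 205 ± 18.1 and 157 ± 12.8 CPM (log2 -0.39 ± 0.08, adjusted p = 0.013). The groups did not overlap in the first 3 of these, while in CANX the lowest wild-type clone (176 CPM) lay just below the highest A428D clone (177 CPM).

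MHC class II genes moved the other way. Of 16 tested members of a list of MHC class II presentation genes, 6 were higher in A428D and 0 lower, with a median log2 change of 0.35. These were HLA-DQB1, HLA-DRB5, HLA-DRB1, HLA-DPB1, HLA-DRA and CD74, the invariant chain that guides class II molecules to the endosome. CIITA, the master activator of these genes, was at 19.9 ± 3.11 CPM in wild-type and 25.2 ± 3.24 CPM in A428D clones (log2 0.33 ± 0.11, adjusted p = 0.134), and passed only in the fit of 44 libraries among the other tools and settings run on all 11 clones. The RFX subunits RFX5, RFXAP and RFXANK were at 0.20, -0.13 and 0.06 and did not pass. Class II promoters are known for a Y box, an inverted CCAAT box bound by NF-Y. Its core letters CTGATTGG, whose last 5 letters are the CCAAT box of the ER element read on the other strand, occurred on either strand in 1337 of 35116 windows (3.81%), which belong to 1253 of 27305 genes (4.59%). They occurred in 5 of the 14 list genes that had a window: HLA-DMA, HLA-DQB1, HLA-DRB1, HLA-DRB5 and RFX5. The 3 with the largest changes are shown 5′ to 3′ on the gene's strand, with the core in capitals.
HLA-DQB1, chr6:32666700-32666789, minus strand: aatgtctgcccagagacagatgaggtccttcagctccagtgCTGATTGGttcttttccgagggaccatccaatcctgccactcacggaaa
HLA-DRB1, chr6:32589849-32589938, minus strand: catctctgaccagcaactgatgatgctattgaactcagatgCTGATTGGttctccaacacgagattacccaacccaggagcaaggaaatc
HLA-DRB5, chr6:32530332-32530421, minus strand: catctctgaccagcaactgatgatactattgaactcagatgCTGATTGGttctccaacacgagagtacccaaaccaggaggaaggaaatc
The HLA-DQB1 stretch, too, lies inside the GENCODE 29 span of its gene. The sequences are those of the reference, not of the alleles of the line, and reads from these near-identical genes can be divided between them, so that their single counts are uncertain.

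HLA-DQB1 was at 6.48, 2.64, 4.34, 4.01 and 3.87 CPM in wild-type clones 1 to 5, and at 6.76, 12.6 and 16.6 CPM as the lowest, median and highest of the A428D clones. The groups did not overlap, with A428D clone 4 just above wild-type clone 1 (log2 1.52 ± 0.24, adjusted p = 0.00414). HLA-DRB1 was at 81.3, 57.8, 46.2, 68.3 and 65.7 CPM against 82.1, 122 and 131 CPM (log2 0.80 ± 0.15, adjusted p = 0.016), and HLA-DRB5 at 35.7, 23.3, 24.7, 31.8 and 24.5 CPM against 36.3, 54.4 and 61.7 CPM (log2 0.85 ± 0.16, adjusted p = 0.0122). In both, A428D clones 2 and 4 were the lowest of their group and wild-type clone 1 the highest of its own. HLA-DRB1 did not pass without wild-type clone 2 (adjusted p = 0.0528). CD74 was at 1870, 1510, 1530, 1540 and 1630 CPM against 1740, 2150 and 2500 CPM, so that A428D clone 4 fell within the wild-type range (log2 0.37 ± 0.08, adjusted p = 0.0275). HLA-DRA and HLA-DPB1 overlapped as well, with changes of 0.39 ± 0.09 (adjusted p = 0.0346) and 0.54 ± 0.12 (adjusted p = 0.0338). CD74 and HLA-DPB1 did not pass without wild-type clone 2, 3, 4 or 5 or A428D clone 3, 5 or 6 (adjusted p = 0.0563 to 0.0917 and 0.0751 to 0.101), nor HLA-DRA without those clones other than wild-type clone 5 (0.0784 to 0.106).

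**Figure D2:**
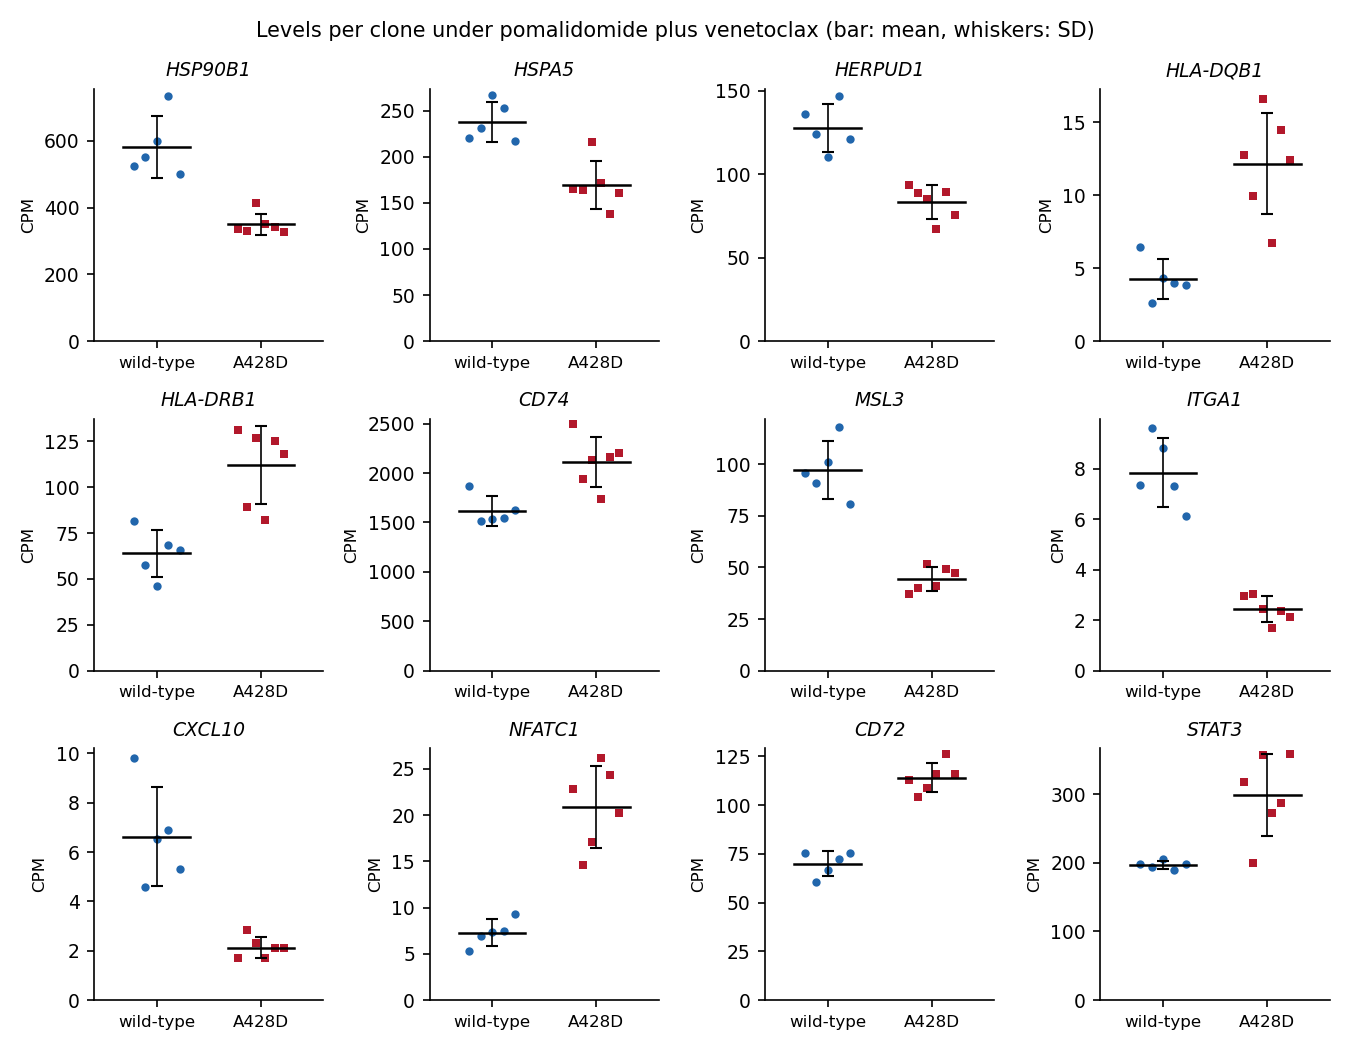
Levels in CPM of 12 genes in each clone under pomalidomide plus venetoclax, with wild-type clones as blue circles, A428D clones as red squares, a bar at the mean and whiskers of 1 SD. In HSP90B1 the A428D clones lie at 327 to 413 CPM and the wild-type clones at 501 to 735, whereas in CD74 A428D clone 4 (1740) lies below wild-type clone 1 (1870).

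Several surface and signalling genes, and 1 chromatin gene, separated the genotypes without overlap. CNR1 (6, 88139864 to 88166359, minus strand), the cannabinoid receptor CB1, was at 8.58, 11, 7.6, 7.31 and 10.8 CPM in wild-type clones and at 20.6, 21.8 and 25.2 CPM in A428D clones. The lowest A428D clone stood well above the highest wild-type clone (log2 1.29 ± 0.12, adjusted p = 7.77e-05). CD72, an inhibitory co-receptor of the B cell receptor, was at 75.3, 60.4, 66.7, 72.2 and 75.7 CPM against 104, 114 and 126 CPM, without overlap (log2 0.69 ± 0.08, adjusted p = 0.000234). NFATC1, a transcription factor switched on by calcium, was at 5.26, 6.95, 7.33, 7.45 and 9.36 CPM against 14.6, 21.5 and 26.2 CPM (log2 1.51 ± 0.16, adjusted p = 0.000234). MSL3, a subunit of a chromatin complex that acetylates histone H4, was at 95.8, 90.7, 101, 118 and 80.5 CPM against 36.9, 44.1 and 51.5 CPM, and was lower in A428D clones (log2 -1.15 ± 0.11, adjusted p = 7.77e-05). These 4 passed with any 1 clone left out.

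Adhesion and migration genes changed in both directions. ITGA1, an integrin chain that binds collagen, was at 7.84 ± 1.37 CPM in wild-type and 2.44 ± 0.506 CPM in A428D clones (log2 -1.70 ± 0.17, adjusted p = 0.000182). ITGB7, which pairs with the chain ITGA4 for homing to the gut, was at 15.6 ± 3.09 and 7.17 ± 3 CPM (log2 -1.15 ± 0.23, adjusted p = 0.0178), with A428D clones 1 and 2 highest of their group at 11.4 and 10.7. It did not pass without wild-type clone 2 or 4 (adjusted p = 0.0613 and 0.0618). CXCL10, a chemokine that attracts T cells, was at 9.81, 4.58, 6.52, 6.88 and 5.32 CPM against 1.69, 2.11 and 2.84 CPM, without overlap (log2 -1.63 ± 0.21, adjusted p = 0.0015). CX3CL1, a membrane-bound chemokine named after its values were seen, was at 2.1, 4.17, 3.39, 6.45 and 4.68 CPM in wild-type clones and between 0 and 1.07 CPM in A428D clones (log2 -3.44 ± 0.47, adjusted p = 0.00207). The A428D levels were near the floor, so CX3CL1 passed the expression filter only through wild-type libraries and the size of its change is uncertain. ITGB2, the shared chain of the leukocyte integrins and also chosen after its values were seen, was higher in A428D, at 10.3 ± 2.16 against 18.2 ± 3.19 CPM (log2 0.82 ± 0.15, adjusted p = 0.00831). SLAMF1, a lymphocyte self-ligand receptor, was higher at 5.09 ± 1.25 against 16.4 ± 8.5 CPM (log2 1.67 ± 0.32, adjusted p = 0.0173), and CD84 of the same family at 7.09 ± 1.61 against 14.4 ± 2.99 CPM (log2 1.02 ± 0.17, adjusted p = 0.0045). SLAMF1 did not pass without wild-type clone 4 (adjusted p = 0.0582) or without the expression filter (adjusted p = 0.0517), and A428D clone 1, at 33.3 CPM, was far above the other A428D clones (11 to 16.6). CCR7, the receptor that guides lymphocytes to lymph nodes, was at 43.5 ± 4.02 and 27.3 ± 7.73 CPM and missed the threshold in edgeR (log2 -0.68 ± 0.17, adjusted p = 0.0568). It passed with DESeq2 (adjusted p = 0.00596), without the expression filter (4.52e-08) and in the fit of 44 libraries (0.0126), as well as without A428D clone 1 (-0.57, 0.017) or 2 (-0.75, 0.0419). Without the filter its change was -0.67, so the far smaller adjusted p came with no larger difference, and its cause was not tested.

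The largest increase in a named gene was in SPIC, an ETS-family transcription factor. It was at 1.4, 0.417, 0.815, 0.143 and 0.161 CPM in wild-type clones and at 1.42, 8.42 and 12.2 CPM as the lowest, median and highest of the A428D clones (log2 3.57 ± 0.65, adjusted p = 0.015). The wild-type levels were near the floor, so SPIC passed the expression filter only through A428D libraries and the size of its change is uncertain. A428D clones 1 and 2, at 2.66 and 1.42 CPM, lay close to the highest wild-type clone, and the call was lost without wild-type clone 2 (adjusted p = 0.0515). Without A428D clone 1, 3, 4, 5 or 6, SPIC did not reach the expression filter and was not tested, so the call rested on those clones as well. MELTF, a surface protein related to transferrin, was at 8.48 ± 2.49 against 35.3 ± 12.1 CPM (log2 2.05 ± 0.29, adjusted p = 0.0045). GCH1, the first enzyme of tetrahydrobiopterin synthesis, was at 3.42 ± 0.672 against 11.3 ± 4.59 CPM (log2 1.72 ± 0.30, adjusted p = 0.0108), with A428D clones 1 and 2 the lowest of their group at 5.16 and 5.86. The same 2 clones were lowest for PIR, a nuclear iron-binding protein, at 8.28 and 8.7 CPM against 16.5 to 18.8 in the other 4, while wild-type clones were at 6.03 ± 0.6 (log2 1.24 ± 0.21, adjusted p = 0.00758). ARPP21, MESP1 and TMC8 were also higher, by 1.59 ± 0.28, 1.18 ± 0.20 and 1.15 ± 0.25 (adjusted p = 0.00991, 0.00548 and 0.0238), and TMC8 did not pass without wild-type clone 3 or 4 or A428D clone 6 (0.0519 to 0.086). MAB21L1 stood higher in A428D clones by 1.81 ± 0.39 (adjusted p = 0.0384), and this call was lost in 7 of the 11 fits with 1 clone left out, those without wild-type clone 2, 3 or 4 or A428D clone 1, 2, 4 or 5 (0.0502 to 0.0977), and without the expression filter (0.0608).

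Among the largest decreases, PHGDH, the first enzyme of serine synthesis, was at 9.81, 21.4, 16.6, 15 and 12.6 CPM in wild-type clones and at 2.97, 6.99 and 9.16 CPM in A428D clones (log2 -1.19 ± 0.23, adjusted p = 0.0156). NUCB2, a calcium-binding protein of the secretory route, was at 7.85 ± 0.903 against 3.59 ± 0.988 CPM (log2 -1.14 ± 0.18, adjusted p = 0.00359). FCGR2C, an Fc receptor gene whose sequence is nearly that of its neighbours, so that its count is uncertain, was at 5.05 ± 0.736 against 2.02 ± 0.909 CPM (log2 -1.35 ± 0.24, adjusted p = 0.00854). ADTRP, a lipid hydrolase, was at 6.15 ± 1.38 against 2.67 ± 1.12 CPM (log2 -1.21 ± 0.27, adjusted p = 0.0235) and did not pass without wild-type clone 3, 4 or 5 (0.0563 to 0.0856) or in the fit of 44 libraries (0.0565). MAP3K20-AS1, an antisense transcript that cannot be told from its partner without the strand setting, was lower by -1.11 ± 0.22 (adjusted p = 0.0141). ASMT, the last enzyme of melatonin synthesis, was lower by -1.13 ± 0.24 (adjusted p = 0.0202), a call that was lost without wild-type clone 2, 3 or 4 or A428D clone 3 (0.0509 to 0.0708).

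Signalling genes changed in both directions. Of 27 tested components of B cell receptor and Toll-like receptor signalling, 2 were higher and 1 lower, with a median of -0.03. PIK3AP1, the adaptor that links the receptor to PI3-kinase, was at 58, 52.5, 57.6, 48.4 and 58.2 CPM in wild-type clones against 69.7, 75.7 and 108 CPM in A428D clones, without overlap (log2 0.57 ± 0.11, adjusted p = 0.0111). TLR10 was higher by 0.65 ± 0.14 (adjusted p = 0.018) and TLR7, a sensor of single-stranded RNA, lower by -0.54 ± 0.11 (adjusted p = 0.0175). TLR10 did not pass without wild-type clone 2, 3 or 4 (0.0544 to 0.067), nor TLR7 without wild-type clone 4 (adjusted p = 0.0592). Of 27 tested NF-kB targets of the B cell receptor, 2 were higher and 3 lower, with a median of -0.10. CD83, an activation marker of B cells, was at 39.8 ± 5.5 against 69.9 ± 12.2 CPM (log2 0.80 ± 0.12, adjusted p = 0.00221), and NFKBIZ, an inducible nuclear IkB protein, at 50.1 ± 6.24 against 72 ± 10.1 CPM (log2 0.51 ± 0.10, adjusted p = 0.016). EBI3, a cytokine subunit, was lower at 28.4 ± 3.25 against 16.9 ± 2.78 CPM (log2 -0.76 ± 0.12, adjusted p = 0.00286). CFLAR, which restrains caspase-8, was at 162, 143, 131, 150 and 139 CPM against 87.3, 106 and 126 CPM, without overlap (log2 -0.46 ± 0.09, adjusted p = 0.0132). MIR155HG, the host transcript of a microRNA linked to B cell lymphoma, was at 97 ± 9.19 against 59.4 ± 14.5 CPM (log2 -0.72 ± 0.15, adjusted p = 0.0191). It did not pass without wild-type clone 3 or 4 or A428D clone 6 (0.0501 to 0.0519).

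Of 15 tested genes of a STAT3 and cytokine list, 3 were higher and 0 lower, with a median of 0.13. STAT3 was at 198, 194, 205, 190 and 198 CPM in wild-type clones and at 199, 303 and 358 CPM in A428D clones (log2 0.59 ± 0.12, adjusted p = 0.0169). The lowest A428D clone, clone 2 at 199, fell within the wild-type range, and the call was lost without wild-type clone 2 or 4 (adjusted p = 0.0575 and 0.0582). SOCS1, which feeds back on JAK kinases, was at 40.6 ± 4.95 against 58.4 ± 8.06 CPM without overlap (log2 0.52 ± 0.10, adjusted p = 0.0156). IL6 was at 4.38 ± 1.47 against 9.73 ± 2.88 CPM (log2 1.14 ± 0.25, adjusted p = 0.0289), but was lost without wild-type clone 1, 3, 4 or 5 or A428D clone 3, 4 or 6 (0.0529 to 0.0661). In the B cell identity list, 2 of 23 tested members were higher, CD72 and SPIC, and 0 lower, with a median of 0.14.

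Lists on stress, interferon and growth held few calls by edgeR or none. Counts at an unadjusted p under 0.05 in these lists stand beside a share of 18.4% over all genes tested. Of 30 tested interferon-stimulated genes, 1 was higher and 0 lower, with a median of 0.22: TRIM22, an antiviral ubiquitin ligase, at 43.7 ± 4.23 against 60 ± 5.22 CPM (log2 0.45 ± 0.08, adjusted p = 0.0099). Of 23 tested genes of the integrated stress response, which cells switch on when amino acids run short or unfolded proteins build up, edgeR called 1, PHGDH, and the median was -0.19. DESeq2 called SLC7A5, an amino acid transporter, as well, at -0.25 (adjusted p = 0.0326), and so did edgeR without wild-type clone 1 (adjusted p = 0.0311) or A428D clone 1 (adjusted p = 0.0345). edgeR called 0 of 19 ERK and immediate early genes (median 0.10), with 5 at an unadjusted p under 0.05, and DESeq2 called 1, the ERK inhibitor SPRED2, at 0.95 (adjusted p = 0.0196). Of 22 hypoxia and glycolysis genes (median 0.18) edgeR called 0, with 8 at an unadjusted p under 0.05. DESeq2 called the glycolytic enzymes HK2 at 0.44 (adjusted p = 0.0398) and PGK1 at 0.24 (adjusted p = 0.0158), and edgeR called 6 higher without the expression filter. Both tools called 0 of 25 genes of MYC and ribosome biogenesis (median -0.01), 27 of proliferation (0.06), 18 of cholesterol synthesis (0.12) and 13 listed mitochondrially encoded transcripts (-0.05), where edgeR had 5, 0, 4 and 3 at an unadjusted p under 0.05. Outside that list edgeR called MT-RNR2, another mitochondrially encoded transcript chosen after its values were seen, lower in A428D clones by -0.37 (adjusted p = 0.0173). MT-RNR2 did not pass without wild-type clone 2 (adjusted p = 0.062). Without A428D clone 1 edgeR called 3 proliferation genes, CCNB2, AURKB and PCNA, all higher. The proliferation genes CCNB2 and CDK1 were at log2 0.40 ± 0.23 and 0.32 ± 0.22 (adjusted p = 0.382 and 0.484). A428D clone 1 held the least CCNB2 of its group, 21.1 CPM against 43 to 61.4 in the other 5, and without it the change was 0.55 (adjusted p = 0.0113).

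**Figure D3:**
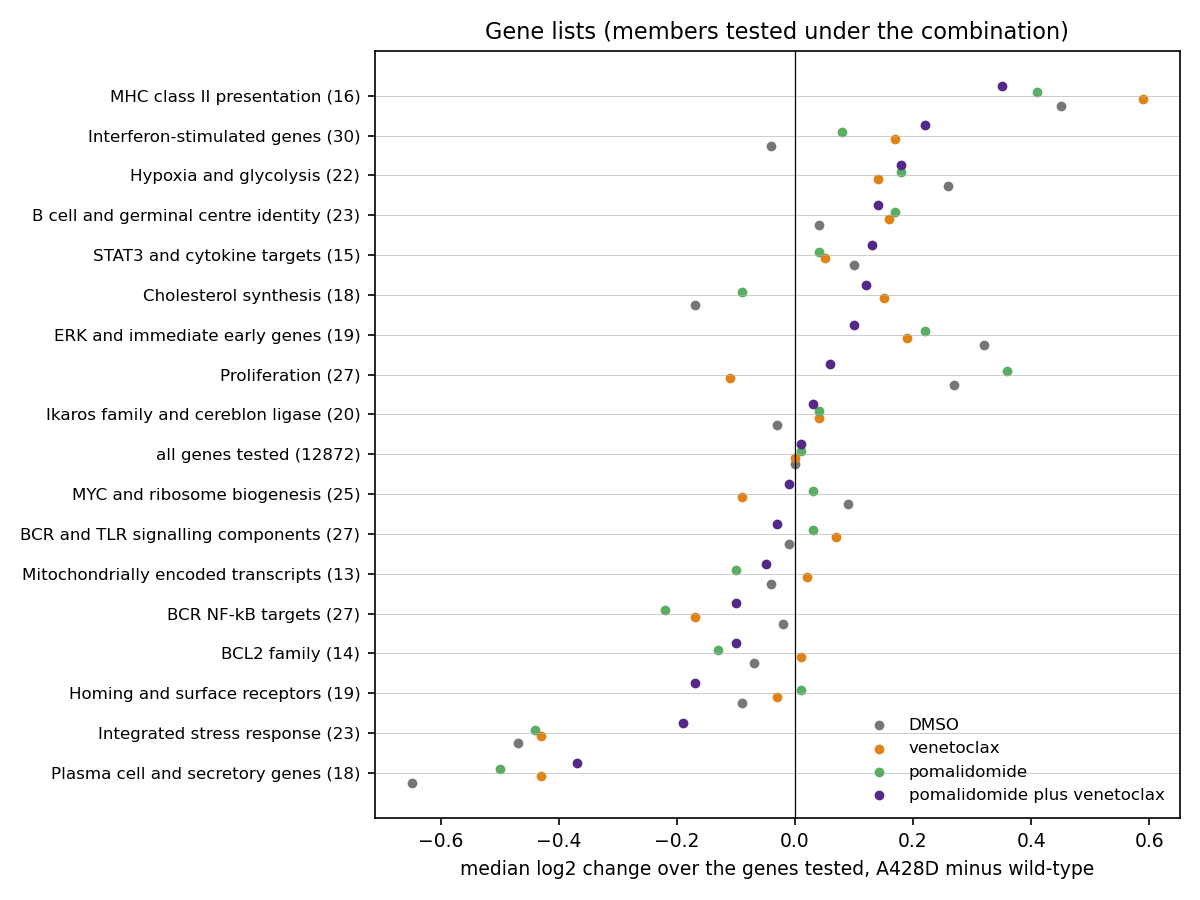
Median log2 change (A428D minus wild-type) over the tested members of each gene list, x axis, under DMSO, venetoclax, pomalidomide and the combination, each from its own 11 libraries; the number in brackets counts members tested under the combination. The secretory list lies lowest, at -0.37 under the combination, and the MHC class II list highest, at 0.35.

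The same clones were compared under the other conditions to see which of these differences were tied to the combination. Called genes numbered 955 of 13397 under DMSO (7.13%), 693 of 12910 under venetoclax (5.37%) and 460 of 13311 under pomalidomide (3.46%), each in a fit of its own 11 libraries. The share called higher in A428D was 3.3%, 2.57% and 1.39% in that order, and the share called lower 3.83%, 2.8% and 2.07%. Of the 325 genes called under the combination, 188 were also called under DMSO (57.8% of the 325 and 19.7% of the 955), 190 under venetoclax (58.5% and 27.4%) and 181 under pomalidomide (55.7% and 39.3%). All of the shared genes had the same direction. The libraries differ but the clones are the same, so these overlaps do not count as independent repeats. In 112 genes the call was made in all 4 conditions and in 66 only under the combination, which does not show by itself that those 66 respond differently.

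The chaperones of the ER were lower in A428D in each condition. In the secretory list, 10 of 19 tested genes were lower under DMSO (median -0.65), 11 of 18 under venetoclax (-0.43) and 10 of 18 under pomalidomide (-0.50), with 0 higher in each. HSP90B1 changed by -0.83 ± 0.12 under DMSO, -0.87 ± 0.10 under venetoclax and -0.74 ± 0.09 under pomalidomide (adjusted p = 0.00134, 0.000238 and 0.0003), beside -0.75 ± 0.10 under the combination. The MHC class II list held 13 of 16 higher under DMSO (median 0.45), 12 under venetoclax (0.59) and 6 under pomalidomide (0.41), with 0 lower. HLA-DQB1 was higher by 1.53 ± 0.29 under DMSO (adjusted p = 0.00992) and 1.52 ± 0.32 under venetoclax (adjusted p = 0.0173), and at 1.24 ± 0.32 under pomalidomide (adjusted p = 0.0621). The integrated stress response list stood at 12 of 25 lower under DMSO (median -0.47), 11 of 24 under venetoclax (-0.43) and 7 of 25 under pomalidomide (-0.44), beside 1 of 23 under the combination (-0.19). SOCS1, higher under the combination, was at 0.10 ± 0.12 under DMSO and 0.05 ± 0.08 under venetoclax (adjusted p = 0.642 and 0.789). Whether such gaps between conditions exceed the spread was asked by the tests of the difference that follow. In those edgeR tests SOCS1 was not called against DMSO, venetoclax or pomalidomide, with or without the clone as a block.

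**Figure D4:**
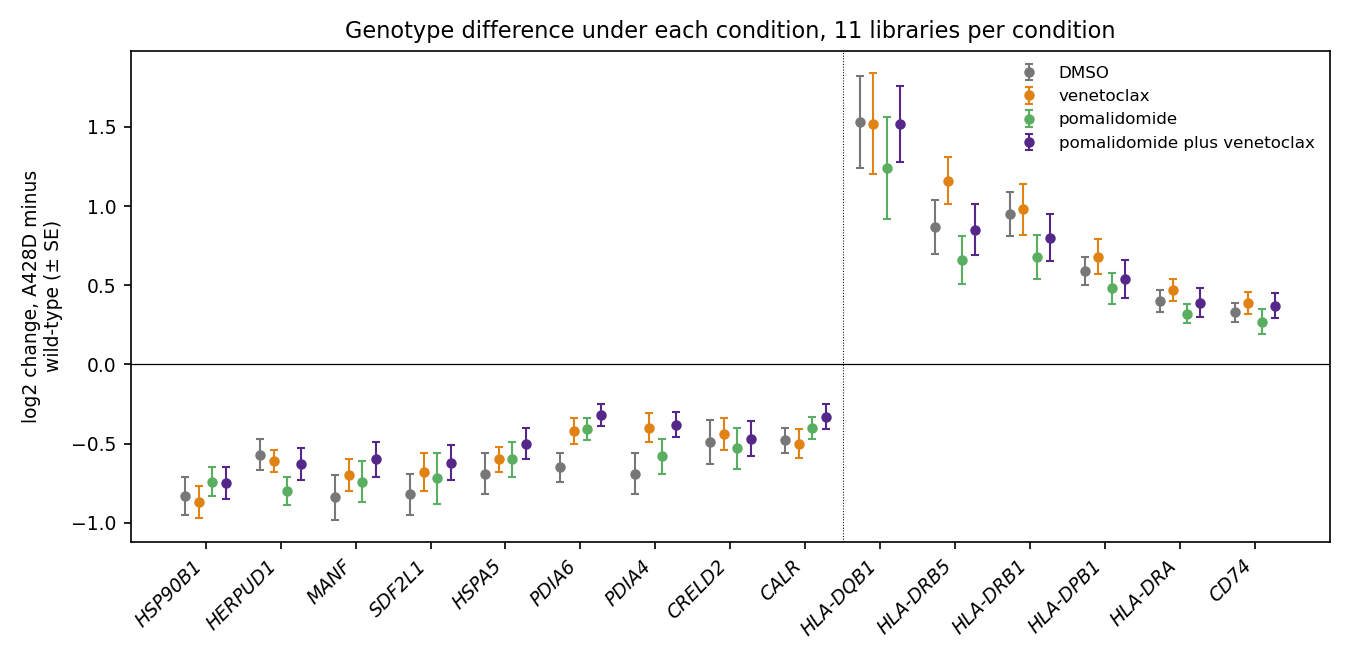
Log2 change (A428D minus wild-type, ± SE, y axis) of 9 ER genes and 6 MHC class II genes in each condition, each from its own 11 libraries. All 9 ER genes lie below 0 and all 6 class II genes above 0 in the 4 conditions, with HSP90B1 between -0.87 and -0.74 and HLA-DQB1 between 1.24 and 1.53.

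The genotype difference under the combination was tested against that under DMSO, venetoclax or pomalidomide as an interaction over 44 libraries. Against DMSO, 1 of 14358 genes differed (0.00696%), and it was CNR1, while 742 (5.17%) had an unadjusted p under 0.05. CNR1 fell under the combination in both genotypes, from 43 ± 3.61 to 9.06 ± 1.74 CPM in wild-type clones and from 53.5 ± 7.4 to 22.3 ± 1.74 CPM in A428D clones. The fall was the smaller in A428D, by a log2 difference of 0.99 ± 0.16 (adjusted p = 0.00506). It did not pass without wild-type clone 1 or 3 (0.95 and 0.96, adjusted p = 0.0555 and 0.0635). Against venetoclax and against pomalidomide, 0 of 14358 genes were called by edgeR, with 372 (2.59%) and 399 (2.78%) at an unadjusted p under 0.05 and 1 and 0 called by DESeq2.

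Because every clone was given every condition, the clone pairs these libraries, and with the clone as a block the count against DMSO was 49 (0.341%), 22 higher and 27 lower. Against venetoclax it was 7 (0.0488%), and against pomalidomide 0 with 959 genes at an unadjusted p under 0.05. The genes named from this fit were chosen after their values were seen. PSAT1, which acts after PHGDH in serine synthesis, was at 60.8 ± 6.71 CPM under DMSO and 33.7 ± 6.75 CPM under the combination in wild-type clones, and at 39 ± 9.33 and 34 ± 6.51 CPM in A428D clones. Its genotype difference was -0.66 ± 0.14 under DMSO (adjusted p = 0.0159) and 0 ± 0.15 under the combination (adjusted p = 0.999), and the gap passed with the clone block (0.67 ± 0.12, adjusted p = 0.00361) and not without it (adjusted p = 0.961). SLC1A5, a glutamine transporter in the same stress list, had a gap of 0.40 ± 0.09 with the block (adjusted p = 0.0214). Among ER genes, PDIA6 (0.32 ± 0.07, adjusted p = 0.0406), HYOU1 (0.44 ± 0.10, adjusted p = 0.0406) and SEC61A1, the channel through which proteins enter the ER (0.40 ± 0.08, adjusted p = 0.00909), also had a smaller difference between the genotypes under the combination than under DMSO. For HSP90B1 and HSPA5 the gap did not pass, at 0.10 ± 0.09 and 0.19 ± 0.08 (adjusted p = 0.696 and 0.252). TSPAN33, a tetraspanin of activated B cells, went from 13.1 ± 1.42 to 21.3 ± 1.4 CPM in wild-type clones and from 15.2 ± 2.43 to 14.5 ± 2.02 CPM in A428D clones (gap -0.75 ± 0.13 with the block, adjusted p = 0.00339, and adjusted p = 0.121 without it). For CCR7 the gap was -0.55 ± 0.11 (adjusted p = 0.00909), and for TNFRSF11A, the receptor RANK, -1.69 ± 0.34 (adjusted p = 0.0152). TNFRSF11A was at 1.39 ± 0.319 CPM under DMSO and 4.17 ± 1.25 CPM under the combination in wild-type clones, against 8.63 ± 3.82 and 7.77 ± 1.24 CPM in A428D clones.

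**Figure D5:**
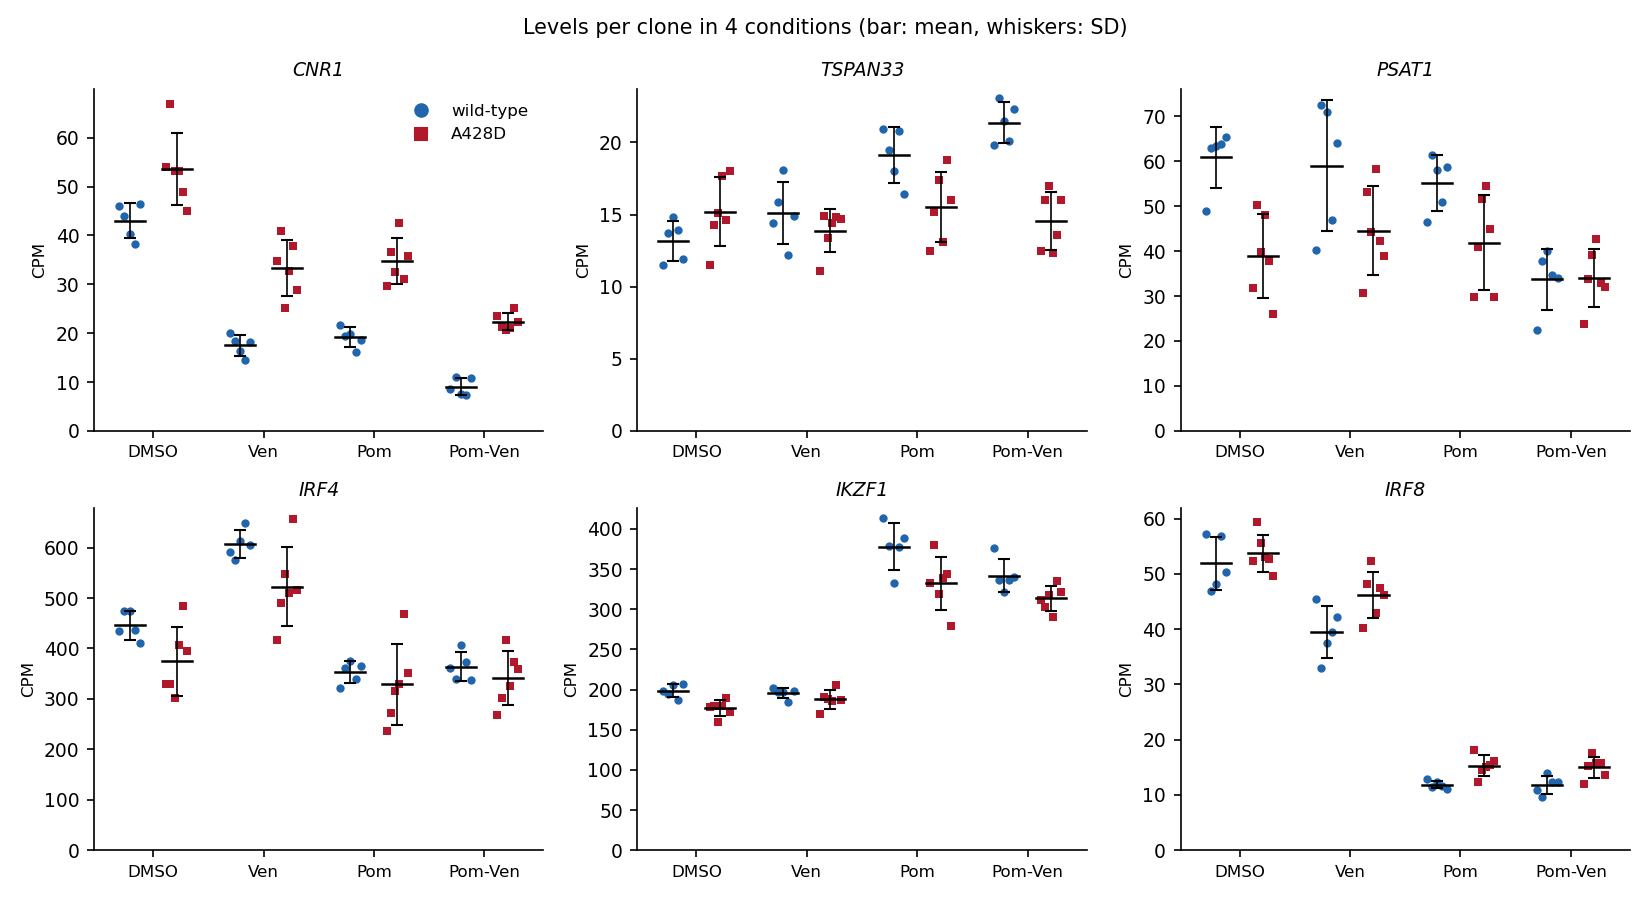
Levels in CPM of 6 genes in each clone under DMSO, venetoclax (Ven), pomalidomide (Pom) and both (Pom-Ven), with wild-type clones as blue circles, A428D clones as red squares, a bar at the mean and whiskers of 1 SD. PSAT1 is lower in A428D under DMSO (39 against 60.8 CPM on average) and level under the combination (34 against 33.7), while IRF8 lies at group means of 11.8 to 15.3 CPM with pomalidomide and 39.5 to 53.8 CPM without it.

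The combination itself changed a large share of the genes tested in both genotypes. Against DMSO, 6042 of 14358 genes changed in wild-type clones (42.1%), 3047 up (21.2%) and 2995 down (20.9%), and 5243 in A428D clones (36.5%), 2638 up (18.4%) and 2605 down (18.1%). The interferon-stimulated genes rose in both, 22 of 31 in wild-type (4 fell, median log2 0.97) and 24 of 31 in A428D clones (3 fell, median 1.08). IFI44L went from 0.351 ± 0.114 to 8.5 ± 2.56 CPM in wild-type and from 0.564 ± 0.489 to 12.2 ± 5.02 CPM in A428D clones. Its DMSO levels were near the floor, so IFI44L passed the expression filter only through drug-treated libraries and the size of its rise is uncertain. MYC and ribosome biogenesis genes rose as well, 21 of 25 in each genotype with 0 falling. Genes of the integrated stress response fell, 19 of 25 in wild-type (median -1) and 13 of 25 in A428D clones with 1 rising (median -0.57). In cholesterol synthesis 14 of 18 fell and 1 rose in wild-type (median -0.63), and 12 fell in A428D clones (median -0.42). IKZF1 transcript rose in both, by 0.79 ± 0.06 and 0.83 ± 0.06 (adjusted p = 5.25e-13 and 1.1e-14). IRF8, a B cell transcription factor chosen after its values were seen, fell by -2.13 ± 0.10 and -1.84 ± 0.09 (adjusted p = 1.05e-20 and 3.83e-20). Among the largest changes were A2M, a protease inhibitor, up by 5.45 ± 0.45 in wild-type and 4.57 ± 0.48 in A428D clones (adjusted p = 1.09e-12 and 4.42e-10), and SERPINF2, another protease inhibitor, down by -4.18 ± 0.76 and -3.45 ± 0.67 (adjusted p = 2.83e-05 and 0.000103). CA9, a hypoxia-induced carbonic anhydrase, was down by -3.88 ± 0.81 and -2.58 ± 0.66 (adjusted p = 0.000176 and 0.002). For IFI44L, IKZF1, IRF8, A2M, SERPINF2 and CA9 the difference between the genotypes in these responses did not pass without the clone block (adjusted p = 0.961 to 0.999). That fit leaves out the pairing by clone, so such values do not show equal responses. None of these genes was among the 49 called with the block.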

How the data were processed

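Gene expression was measured by 3' RNA sequencing, per the labels' protocols. The authors deposited estimated counts per gene for 100 libraries. Alignment and counting tools listed in the submitters' processing notes are STAR 2.7.11, featureCounts and Subread 2.1.1, beside fastp 0.24.0 and edgeR, with build GRCh38. Of the values, 8.75% were not whole, so the counts were rounded, which changed the total by -0.00678%. The 92 spike-in entries were left out (at most 0.001% of a library), leaving 78894 identifiers, of which 36134 have no symbol. The sources used here do not give the strand or multi-mapping settings.

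The 11 libraries were compared in R 4.3.3 with edgeR 4.0.16 (robust quasi-likelihood test, TMM scaling, minimum count 10, minimum total 15), with Benjamini-Hochberg adjustment and a call at an adjusted p under 0.05. Treatment effects and differences in response used 44 libraries and no clone block. The other conditions were fitted on their own 11 libraries, a choice made after the data were seen. The genotype fit and the test of the difference against DMSO were run on simulated counts with known changes. These were independent libraries with the same dispersion in every gene and no clone effects. The runs therefore do not test the fits under shared or outlying clones. Clones pair the 44 libraries: over the 500 most variable genes, deviations of 2 libraries of the same clone correlated at a median of 0.63 (lowest 0.26). The median per clone was 0.35 to 0.54 in wild-type and 0.65 to 0.85 in A428D clones. For other clones of the genotype the median was -0.17, but subtracting each group's mean by itself pulls that value below 0. Positions are from GENCODE release 29.

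Genes were named by rule: BTK, the drug targets and key survival and B cell factors; the 12 largest called changes in each direction with a symbol, no overlap and a mean of at least 5 CPM in the higher group; in each of 21 lists the 4 called genes with the smallest adjusted p or, with fewer than 2 called, the 2 tested genes with the smallest p; and the 6 largest called changes in each direction per interaction and treatment effect. Further list members given with values (HSPA5, PDIA6, PDIA4, CRELD2, CALR, PRDM1, XBP1, JCHAIN, HLA-DRA, HLA-DPB1, CIITA, RFX5, RFXAP, RFXANK, MIR155HG, CCR7, and those named because another tool or fit called them) fall outside the rule and were chosen after their values were seen, as were genes so marked in the report. Some genes that the rule names are not reported here. The genes and lists were chosen with earlier results of these data known. Alternatives were DESeq2 1.42.0, RLE scaling, no expression filter, a replicate block, more libraries in the fit, each clone left out in turn and, added after seeing the data, mitochondrial genes left out.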

Additional observations from a re-analysis of the deposited data

Results flagged for a closer look

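In 170 groups of values (85 genes in each genotype under the combination), 9 held a clone far from the rest of its group by Dixon's criterion, and chance alone flags about 1 in 20 such groups. A428D clone 1 was the high clone for SLAMF1, with 33.3 CPM against 11 to 16.6 in the other A428D clones. It was also high for TMC8, with 18.3 CPM against 8.79 to 12.1, and for JCHAIN, with 106 CPM against 8.59 to 26.6. A428D clone 3 had the most HSP90B1 of its group, 413 CPM against 327 to 352, and still lay below every wild-type clone. HLA-DRA was low in A428D clone 4, at 684 CPM against 887 to 968.

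Among wild-type clones, CRBN was high in clone 5, at 17.9 CPM against 9.91 to 12.1 in the others. Clone 4 was high for MAP3K20-AS1, at 11.9 CPM against 7.06 to 8.06, and for RFXANK, at 42.4 CPM against 37.4 to 38.3. RFXAP was low in clone 3, at 7.2 CPM against 8.71 to 9.31.

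The genotypes differed in how far CNR1 fell from DMSO to the combination, by a log2 difference of 0.99 (edgeR interaction test over 44 libraries, adjusted p = 0.00506).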

How the results depend on the processing

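The count of 325 genes called between the genotypes (122 higher, 203 lower) was 330 with RLE scaling. It was 555 with DESeq2 (235 higher, 320 lower), 813 without the expression filter (347 and 466) and 663 in the fit of 44 libraries, where the split became even at 332 and 331. The fit of 44 libraries had no clone block and treated libraries of the same clone as independent, so its p-values can be too small. With 1 clone left out it ran from 161 to 734, and 320 of the 325 genes were among the 734 called without A428D clone 1. The cause was not tested.

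With the replicate number as a block between wild-type and A428D clones, the count was 180 (66 and 114). Same-numbered clones did not deviate together (correlations from -0.08 to 0.02), so they share only a number. With the clone as a block, which pairs libraries of 1 clone, genes differing in response numbered 49 against DMSO, 7 against venetoclax and 0 against pomalidomide, and the combination changed 7605 genes in wild-type and 6843 in A428D clones.

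Without the expression filter, genes differing in response numbered 29 against DMSO, 16 against venetoclax and 14 against pomalidomide. With DESeq2 they numbered 3 against DMSO and 1 against venetoclax. With 1 clone left out, they ran from 0 to 2 against DMSO, from 0 to 2 against venetoclax and stayed at 0 against pomalidomide. The causes were not tested.

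Among genes of the genotype comparison, signs changed in 4 that were near 0 and not called. PSAT1 was at 0.01 without the filter and in the fit of 44 libraries, at 0.02 with the replicate block, and from -0.12 to 0.08 with 1 clone left out. IKZF3 was at -0.02 with the replicate block and from -0.03 to 0.04 with 1 clone left out. CRBN ran from -0.2 to 0.04 with 1 clone left out and was above 0 only without wild-type clone 5. CAV1 ran from -0.28 to 0.02 and was above 0 only without wild-type clone 4.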
